A study of Triticum turgidum subsp. durum with 4 samples.

Results

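The comparison described here sets the miRNAs of L6 seedlings against those of DBA Aurora seedlings when the parents of both had been stressed. SWH is the small RNA library of L6, an advanced breeding line that the study describes as stress-sensitive, and TWH is the library of DBA Aurora, a commercial durum wheat that it describes as stress-tolerant. In both groups the parents had gone through water deficit from the booting stage and heat episodes after flowering, while the seedlings themselves were not stressed. Each library held RNA pooled from the shoots of 8 seedlings, collected at 12 days. The other 2 libraries of the series, SCG (L6) and TCG (DBA Aurora), came from seedlings of control parents and are given beside SWH and TWH. With 1 pooled library per seed group there is no spread between replicates, so every p-value from the reads of SWH and TWH compares these 2 libraries and not the seed groups, and in such bulk pools fewer cells of a type and less RNA per cell cannot be told apart. Small RNA tables hold no marker transcripts, so the labelled tissue could not be checked against markers.

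The members were all distinct mature sequences recorded in SWH or TWH. They were 1985 of the 2111 distinct sequences of the series. The sequences took 855716 reads in SWH, 1096670 in TWH, 1293324 in SCG and 994074 in TCG, and the depth differs by a factor that the deposited normalised counts remove. Nearly no value lies under 5 reads, so a sequence listed at 0 is read here as having fewer than 5 reads, and ratios to such a library are lower bounds that place 5 reads there. Of the 1985 sequences, 1473 were recorded in both libraries, 345 in TWH but not SWH, and the rest in SWH alone. TWH was the deeper library of the pair.

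Plant miRNAs are cut from the stem of a hairpin precursor, mostly by DICER-LIKE1, and 1 strand enters an ARGONAUTE protein, where it guides the cleavage or repression of transcripts that pair with it along nearly its whole length. Old families such as miR156, miR160, miR166, miR169, miR396 and miR398 target mainly transcription factors and stress enzymes and are shared by most land plants. Grasses and wheats carry further young families, and many of these still lack a well known target.

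The sequences below are a selection of those on which the results turn. They are the 3 most abundant sequences listed at 0 in both DBA Aurora libraries, with the other arm of the first, the sequence with the only adjusted p under 0.05 in the fit of all 4 libraries, a miR9661 and both arms of a miR169 hairpin that were higher in SWH, and the 4 most abundant of the miR398 sequences that were lower. Each is written 5′ to 3′ with T for U, and the capitals mark bases 2 to 8, the seed. The names are the authors': L and R give bases gained or lost at the 5′ and 3′ ends against miRBase, and ss gives a substitution. MIR with p5 or p3 marks a sequence from the 5′ or 3′ side of a hairpin, often the arm opposite to the known miRNA. Some hairpins carry such names on both arms. PC marks a miRNA with no miRBase match.
PC-5p-1206_1154: tTTGCGCAgaagggagaaatc
PC-3p-21060_90: tTTCTCTCctctttgtgaaga
tae-miR6201: tGACCCTGaggcactcataccg
ata-miR169b-3p_R-1: tGGGCAAGtcatcctggctacc
ata-MIR396d-p3: aAGCCCATggaaaccatgccc
tae-miR9661-5p_1ss14GA: tGAAGTAGagcagagacctca
ata-miR169i-5p_1ss15TC: tAGCCAAGgatgacctgcctg
ata-miR169i-3p: gGCAGTCTccttggctagc
mtr-miR398a-5p_1ss7AC: gGAGTGCCactgagaacacaag
bdi-miR398b_L-2R+2: gGAGTGTCactgagaacacaag
osa-miR398a: tGTGTTCTcaggtcacccctt
osa-miR398a_L+1R-1: tTGTGTTCtcaggtcacccct
Among the 27 abundant differentially expressed sequences described below, the only seed found more than once was that of ata-miR169i-5p_1ss15TC, which sly-miR169a_R+4 shares, and these 2 lay on opposite sides of the comparison.

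Most abundant miRNAs differed little between the genotypes, and a small set differed by several fold. A sequence was called a differentially expressed miRNA (DEM) when its normalised counts gave p under 0.05 both in the chi-squared 2 × 2 test and in Fisher's exact test (two-sided) and the fold change was above 2, with a 0 in 1 library meeting the fold criterion. By this rule 239 sequences (12% of those tested) were higher in SWH and 352 (17.7%) were lower. A 0 in SWH accounted for 270 of the lower ones, and over both directions 73.8% of the DEMs rested on a library in which the sequence was not recorded. The recording floor acted unequally on the directions. Sequences with 5 reads in SWH and 0 in TWH have 5.99 normalised counts and were called. Those with 5 reads in TWH and 0 in SWH have 4.73 and were not called. Nearly every sequence recorded in SWH alone was therefore a DEM, against 270 of the 345 recorded in TWH alone. Among sequences recorded in both libraries, 73 were higher and 82 lower. Of 345 sequences that reached 100 normalised counts in SWH or TWH, 264 lay within 1.5-fold of each other, and 15 were called higher and 12 lower. The DEMs higher in SWH held 2.32% of the SWH reads and 0.666% of the TWH reads, and the lower ones held 0.291% and 1.01%.

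**Figure D1:**
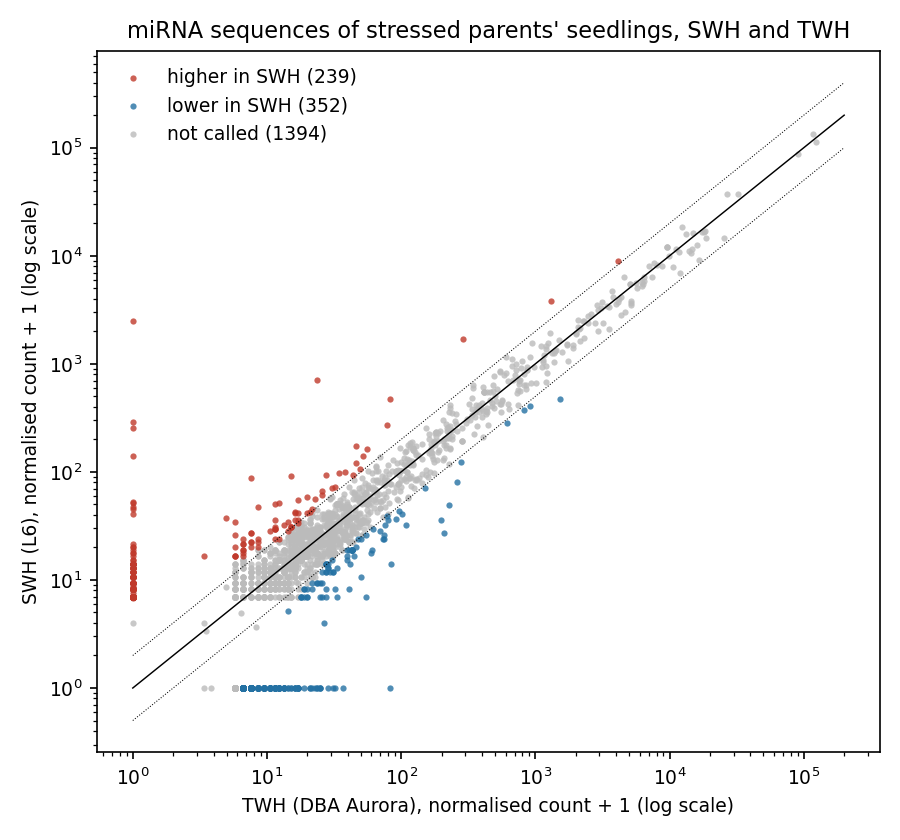
Normalised count + 1 of 1985 sequences in SWH (vertical, log scale) and TWH (horizontal, log scale), 1 point per sequence. The solid line marks equal counts and the dotted lines 2-fold differences, and the points along both axes, listed at 0 in 1 library, hold most of the 239 DEMs higher in SWH and the 352 lower ones.

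The 5 most abundant sequences of SWH were not DEMs. osa-miR396e-5p, of the family that targets GROWTH-REGULATING FACTOR genes, had 134776 normalised counts in SWH and 116565 in TWH. tae-miR7757-5p_1ss2TC had 113156 in SWH and 124237 in TWH, and tae-miR9674b-5p had 88281 and 90855. bdi-miR394, whose family targets the F-box gene LEAF CURLING RESPONSIVENESS, had 37361 in SWH and 32601 in TWH, and tae-miR9773_R+1 had 36987 and 26810. The largest of these differences was that of tae-miR9773_R+1, a log2 ratio of SWH over TWH of 0.46 (95% counting interval 0.44 to 0.49). Here and throughout, log2 ratios have a pseudocount of 1 added to both counts, and the interval in brackets covers counting error only.

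The sequences furthest above TWH were recorded in the L6 libraries and listed at 0 in the DBA Aurora libraries. PC-5p-1206_1154 had 2473 normalised counts in SWH and 0 in TWH, at least 523-fold higher, and it had 2228 in SCG and 0 in TCG. Its listed precursor lies on chromosome 6B of Svevo.v1, from 686359405 to 686359488 on the plus strand, in no annotated gene and 17638 bp from the nearest one, TRITD_6Bv1G223740. The other arm of the same hairpin, PC-3p-21060_90, showed the same pattern at lower counts, with 44.4 in SWH, 0 in TWH, 52.5 in SCG and 0 in TCG. tae-miR6201, of a family named from wheat, had 286 in SWH, 0 in TWH, 276 in SCG and 0 in TCG, at least 60.5-fold higher in SWH than in TWH. Its precursor is listed on the same chromosome from 687617291 to 687617436, 1257.8 kb from that of PC-5p-1206_1154. Between them the table places PC-3p-19021_98, a sequence with 20.4 in SWH and 18.9 in TWH that was not called.

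ata-miR169b-3p_R-1 was the third abundant sequence of this kind, with 252 in SWH, 0 in TWH, 300 in SCG and 0 in TCG, at least 53.2-fold higher in SWH. It is the strand opposite to a miR169, the family that targets NF-YA subunits of a CCAAT-binding transcription factor, and its precursor lies on chromosome 4A from 613065888 to 613066020, 3073 bp from TRITD_4Av1G214460. PC-3p-12688_136 also had 0 in TWH and 138 in SWH, at least 29.1-fold higher, yet in the control pair it had 56.6 in SCG and 33.1 in TCG. The 0 in TWH was therefore not shared by the other DBA Aurora library. With at least 20 counts in both libraries of 1 genotype and 0 in both of the other, 7 sequences were recorded in L6 alone and 3 in DBA Aurora alone. For scale, 990 sequences reached 20 counts in SWH or TWH. The 7 include both arms of the hairpin of PC-5p-1206_1154 on chromosome 6B, so they are not independent. They also include both arms of a second hairpin without miRBase match, on chromosome 7A from 661864489 to 661864592. Its 5′ arm, PC-5p-18101_102, had 46.7 in SWH and 52.5 in SCG, and its 3′ arm, PC-3p-22637_85, had 39.6 and 43.3. The most abundant of the 3 recorded in DBA Aurora alone, osa-miR167a-5p_R+1, had 0 in SWH and 30.3 in TWH, and 0 in SCG and 25.9 in TCG.

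ata-MIR396d-p3 was recorded in all 4 libraries and was 31.2-fold higher in SWH. It had 710 normalised counts in SWH and 22.7 in TWH, a log2 of 4.91 (4.38 to 5.62), and 735 in SCG against 29.0 in TCG. Both L6 libraries lay far above both DBA Aurora libraries, and the share of all sequences with such an order was not counted. ata-MIR396d-p3 comes from the 3′ side of a miR396 hairpin on chromosome 2B, from 759453121 to 759453264. The 5′ side of that hairpin, osa-miR396e-5p_R-1, had 6382 in SWH and 4607 in TWH. The same 5′ sequence with 1 more base, osa-miR396e-5p, is listed at a hairpin on chromosome 2A, so counts of the 5′ side may come from more than 1 locus.

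tae-miR9661-5p_1ss14GA, of a wheat family, had 1689 in SWH and 288 in TWH, a log2 of 2.55 (2.37 to 2.74). In the control pair it had 3513 in SCG and 312 in TCG. Both arms of its hairpin on chromosome 4A (607648117 to 607648193) were called higher in SWH, the minor arm, tae-MIR9661-p3, with 51.5 in SWH and 0 in TWH. tae-miR9774_L+2 had 3841 in SWH and 1296 in TWH, a log2 of 1.57 (1.48 to 1.66), with 1589 in SCG and 1096 in TCG, so that SWH was the highest of the 4 libraries. lja-MIR7526g-p3_2ss15TG20TC had 121 in SWH and 45.4 in TWH, and 226 in SCG and 40.4 in TCG.

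**Figure D2:**
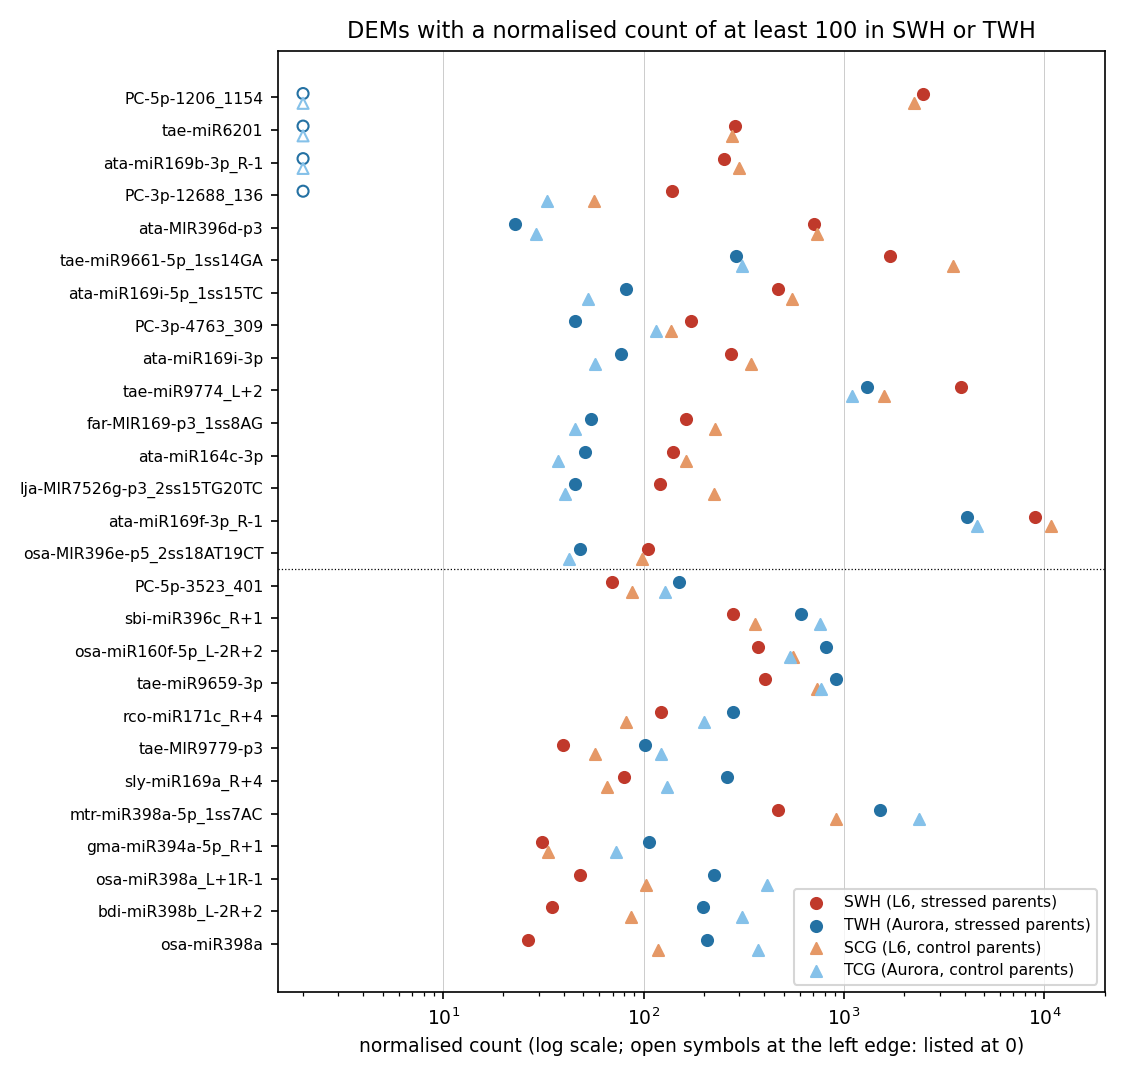
Normalised counts (log scale) of the 27 DEMs with at least 100 counts in SWH or TWH, ordered by log2 fold change, with SWH and TWH as circles and SCG and TCG as triangles; open symbols at the left edge are listed at 0. The 15 sequences above the dotted line were higher in SWH and the 12 below it were lower, and for most sequences the triangles follow the circles.

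Members of the miR169 family made up 5 of the 15 abundant sequences that were higher in SWH. The share of this family among all abundant sequences was not counted. The 5 are not independent, as they include both arms of the same hairpin. Of the 5, only ata-miR169i-5p_1ss15TC came from the 5′ side of its hairpin, and the others came from the 3′ side. The NF-YA targets named above are those of the family and were not examined for each arm. Both arms of the hairpin on chromosome 5B (478571163 to 478571291) rose, ata-miR169i-5p_1ss15TC with 469 in SWH and 81.9 in TWH, and ata-miR169i-3p with 272 and 77.1. In the control pair the 5′ arm had 553 in SCG and 52.8 in TCG and the 3′ arm 345 and 56.9. For both arms of this hairpin the L6 libraries lay above the DBA Aurora libraries. How many of all sequences had such an order was not counted. ata-miR169f-3p_R-1, from chromosome 2A, had the highest count of any DEM, 9018 in SWH and 4103 in TWH, a log2 of 1.14 (1.08 to 1.19), and 10772 in SCG against 4609 in TCG. far-MIR169-p3_1ss8AG was also higher in SWH, with a log2 of 1.56 (1.12 to 2.04). The family as a whole was mixed. Of 51 recorded miR169 sequences, 14 (27.5%) were higher and 10 (19.6%) lower, beside 12% and 17.7% over all sequences tested. The summed counts of the family were 36008 in SWH and 33093 in TWH. Its most abundant sequence, bdi-miR169c-3p_L+1_2ss6GA13CT, also from the 3′ side, was not a DEM, with 14739 in SWH and 18713 in TWH. The 5′ sequence sly-miR169a_R+4, which carries the seed of ata-miR169i-5p_1ss15TC, was lower, with 80.3 and 259.

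The miR398 family was lower in SWH. It targets copper/zinc superoxide dismutase genes and their copper chaperone, and in other plants it is known to respond to copper supply and stress. These targets are those of the family and were not examined for each arm. Of its 8 recorded sequences 6 fell and 0 rose, and the summed counts were 779 in SWH and 2357 in TWH, and 1486 in SCG and 3692 in TCG. The 5′ sequence mtr-miR398a-5p_1ss7AC held most of each sum. It had 471 in SWH and 1516 in TWH, a log2 of -1.68 (-1.85 to -1.53), with 917 in SCG and 2354 in TCG. From the other side of the same hairpin on chromosome 5A (468826184 to 468826360), osa-miR398a_L+1R-1 had 47.9 in SWH and 224 in TWH, with 102 in SCG and 412 in TCG. bdi-miR398b_L-2R+2, from the 5′ side of a second hairpin 2.7 kb away, had 34.8 in SWH and 197 in TWH. osa-miR398a, a 3′ sequence listed on chromosome 5B from 482030514 to 482030690, had the lowest ratio of the abundant DEMs. It had 26.4 in SWH and 207 in TWH, a log2 of -2.93 (-3.68 to -2.34), with 118 in SCG and 374 in TCG. For each of these 4 sequences SWH was the lowest of the 4 libraries and TCG the highest. The 2 sequences that did not fall, from another locus on chromosome 3B, were ata-miR398g-5p_L+1R-1_1ss9GA, with a log2 of 0.35 (-0.06 to 0.77), and tae-miR398_L-1R+1, with 0.20 (-0.36 to 0.78).

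The other abundant sequences that were lower in SWH came from several families. osa-miR160f-5p_L-2R+2, from a family that targets auxin response factors, had 370 in SWH and 817 in TWH, while SCG and TCG had 555 and 540. The other arm of that hairpin on chromosome 7B, osa-MIR160f-p3_1ss19TA, had 1166 in SWH and 606 in TWH and missed the fold criterion. tae-miR9659-3p had 404 in SWH and 910 in TWH, against 733 in SCG and 772 in TCG, so for both of these DEMs SCG and TCG lay close together. The difference between the pairs was not tested. sbi-miR396c_R+1 had 280 in SWH and 609 in TWH, rco-miR171c_R+4 had 123 and 278, gma-miR394a-5p_R+1 had 31.2 and 107, tae-MIR9779-p3 had 39.6 and 101, and PC-5p-3523_401 had 69.5 and 150. Just outside the fold criterion, PC-5p-3937_364 had 56.3 in SWH and 112 in TWH, and just inside it was PC-5p-3523_401.

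The regulatory families were described by lists of family numbers, beside the 12% higher, 17.7% lower and median log2 of -0.09 over all 1985 sequences. Both percentages and the list counts include sequences with 5 reads in 1 library and 0 in the other. Such sequences were called when the reads were in SWH but not when they were in TWH. In the copper list (miR397, miR398, miR408 and miR528 were recorded) 1 of 15 sequences was higher and 6 were lower, with a median of -0.60. All 6 lower ones were miR398, and the higher one, a miR397, was listed at 0 in TWH. In the auxin list (miR160, miR167, miR390 and miR393, which target auxin response factors, TAS3 and auxin receptors) 11 of 54 were higher and 10 lower, with a median of -0.30. Only 2 of the higher ones and 3 of the lower ones were recorded in both libraries, and the summed counts were 56867 in SWH and 72154 in TWH. The sequence with the largest difference in counts was ata-miR167b-5p, with 9081 in SWH and 16604 in TWH, a log2 of -0.87 (-0.91 to -0.83), which missed the fold criterion.

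In the list for leaf and organ development (miR159, miR164, miR166, miR171, miR319, miR394, miR396 and related numbers) 17 of 124 were higher and 17 lower, with a median of 0.01. Within it the miR319 sequences, which target TCP genes, had 4 higher and 0 lower among 11. Only 2 of these 4 were recorded in both libraries. The sum was 21067 in SWH and 13950 in TWH. The main miR319 sequence, osa-miR319a-3p.2-3p_R+1, had a log2 of 0.57 (0.54 to 0.61) and missed the fold criterion. The miR166 sequences, which target HD-ZIP III genes, had 0 higher and 4 lower among 20. That is 20% lower, near the 17.7% over all sequences, and only 1 of the 4 was recorded in both libraries. The sum was 14220 in SWH and 19450 in TWH. osa-MIR396e-p5_2ss18AT19CT, a variant from a miR396 hairpin, was higher, with 105 in SWH and 48.3 in TWH. ata-miR164c-3p rose, with 140 in SWH and 51.1 in TWH, while the 5′ arm of its hairpin, ata-miR164b-5p, from the family that targets NAC genes, had 5237 and 6243.

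In the phase change list (miR156 and miR172, which target SPL and AP2-like genes) 2 of 28 were higher and 5 lower, with a median of -0.16. The 2 higher ones, nta-MIR172f-p3_2ss15CG19TA and nta-MIR172f-p3_2ss14CG18TA, are of 19 and 18 nt, with 50.3 and 57.5 in SWH against 11.4 and 18.9 in TWH. The 5 lower ones were all at 0 in SWH. The most abundant, bdi-miR156b-5p, had 6328 in SWH and 7451 in TWH and was not called. In the nutrition list (miR169, miR395, miR399 and miR827) 15 of 78 were higher and 18 lower, with a median of -0.08 that was 0.16 at a mean count of at least 10. miR169 gave 14 of the higher ones, and miR399, which targets the phosphate regulator PHO2, gave 0 higher and 4 lower of 15. Only 1 of these 4 was recorded in both libraries.

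The 2 sequences of the small RNA pathway list are the arms of 1 miR168 hairpin on chromosome 6B. miR168 targets ARGONAUTE1. osa-miR168a-5p had 10955 in SWH and 14016 in TWH, and osa-miR168a-3p_L-3 had 11431 and 14660, a log2 of -0.36 (-0.40 to -0.32), so neither was a DEM. In the control pair the 3′ arm had 8570 in SCG and 3571 in TCG. Of 26 sequences of miR9863 and miR2118, families that target NLR resistance gene transcripts, 5 were higher and 4 lower, with a median of 0.05. ata-MIR9863a-p5_1ss7TC had 65.9 in SWH and 24.6 in TWH and ata-MIR9863a-p3_2ss2CT19AT had 42.0 and 15.1, while the main sequence, ata-miR9863a-3p, had 16885 and 18260.

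Of 78 sequences in the grass list (miR437, miR444, miR5048 and others) 4 were higher and 14 lower, with a median of -0.08. tae-MIR5048-p5_2ss18AT19GT had 93.5 in SWH and 42.6 in TWH, tae-MIR5048-p3_3 had 13.2 and 26.5, and the main sequence, tae-miR5048-5p, had 16420 and 17462. Of 253 in the Triticeae list 35 were higher and 49 lower, with a median of -0.08. Of 522 sequences of repeat-like families such as miR1128 and miR1139, 51 were higher and 133 lower, with a median of -0.23. Only 4 and 7 of these were recorded in both libraries. The most abundant sequence, tae-MIR1123-p3_1ss23AC, had 3590 in SWH and 4002 in TWH. Examples of repeat-like DEMs were tae-MIR1122b-p5_1ss15GA, with 50.3 in SWH and 0 in TWH, and tae-MIR1130b-p3_2ss8AT20GT, with 5.99 and 32.2.

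Of 130 sequences of families listed as tRNA- or rRNA-like (miR5368, miR6478, miR6300 and others) 25 were higher and 17 lower, with a median of 0.07. The list was set by family number, and the sequences were not compared with tRNA or rRNA. osa-miR5083_L-3R+1 had 0 in SWH and 81.4 in TWH, at least 13.6-fold lower in SWH, gma-miR6300 had 53.9 and 16.1, and the main one, ptc-miR6478_R-1, had 1058 and 801. Among the miRNAs without miRBase match, 13 of 198 sequences of 21 nt were higher and 18 lower, and 7 of 219 sequences of 24 nt were higher and 23 lower. Apart from PC-5p-1206_1154, PC-3p-4763_309 was among the 2 most abundant DEMs of 21 nt, with 173 in SWH and 45.4 in TWH, and 137 in SCG and 115 in TCG. The most abundant of all, PC-3p-122_18579, had 3813 in SWH and 5129 in TWH. At 24 nt PC-3p-15211_118 had 34.8 in SWH and 78.6 in TWH, and the most abundant, PC-3p-494_2904, had 704 and 769.

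**Figure D3:**
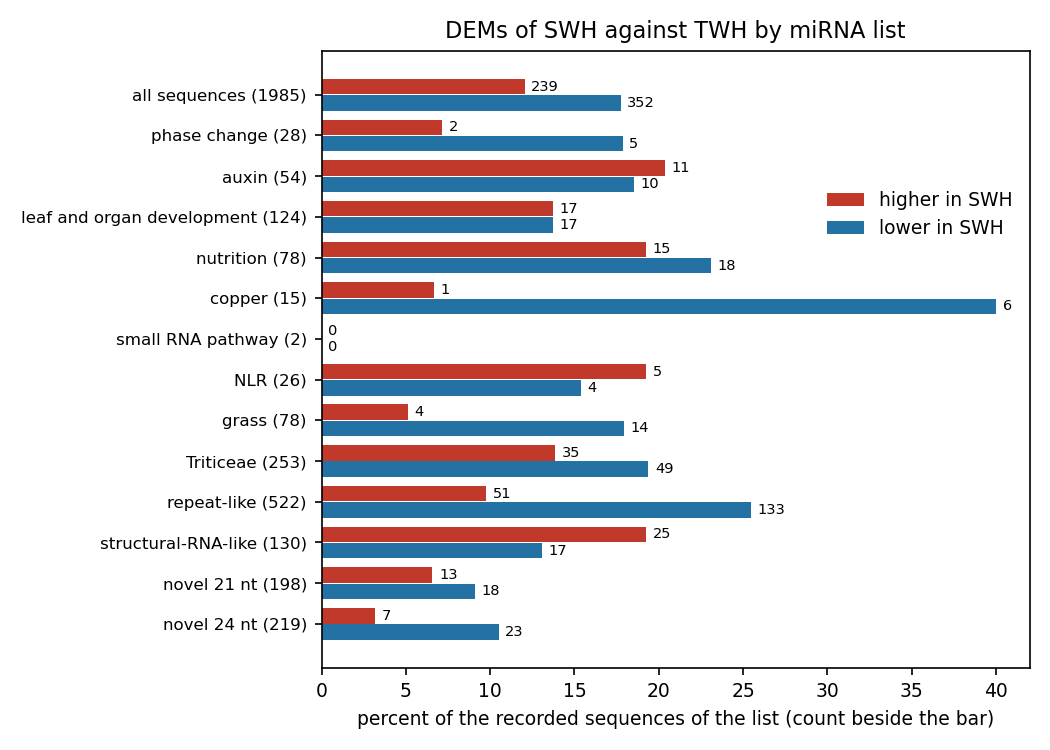
Share of the recorded sequences of each list that were DEMs higher or lower in SWH, with their number beside each bar and the number recorded in brackets after the list's name. The copper list had the highest share of lower sequences, 6 of 15, and the repeat-like list the highest number, 133 of 522, most of them listed at 0 in SWH.

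Sequences of 21 nt took 61.6% of the normalised counts in SWH and 61.8% in TWH, and those of 22 nt took 21.3% and 23.0%. Sequences that begin with T took 62.1% in SWH and 60.9% in TWH, and those that begin with A took 25.6% and 26.6%. The DEMs differed more by length. Sequences of 18 and 19 nt were 22 and 32 of the 239 higher DEMs but 14 and 13 of the 352 lower ones. They were 87 and 101 of the 1985 recorded sequences. Sequences of 24 nt were 43.8% of the lower DEMs, 21.8% of the higher ones and 33.0% of all those recorded. These contrasts lie in the low counts. Among DEMs with at least 100 counts, 0 were of 18 nt and 2 of 19 nt, both higher. At 24 nt 1 was higher and 1 lower. Of 270 precursors with at least 2 listed sequences, 17 had 2 DEMs. In 6 of them both were higher in SWH, in 4 both were lower, and in 7 they went opposite ways, each with a sequence listed at 0 in SWH or TWH.

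The base that differs between close relatives of 1 family was also examined. No pair of DEMs of equal length and 1 base apart moved in opposite directions with at least 20 counts each (0 pairs, and 0 with at least 10). After the data were seen, pairs that passed both tests in opposite directions were searched without the fold criterion among sequences with at least 100 counts, and 6 were found. The 2 pairs whose log2 ratios lay furthest apart are shown with the differing base in capitals.
tae-miR167c-5p: tgaagctgccagcatgatctgC
ata-miR167b-5p: tgaagctgccagcatgatctgA
ata-miR396e-5p: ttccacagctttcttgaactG
ata-miR396c-5p: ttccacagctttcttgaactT
With positions counted from the 5′ end, the miR167 forms differ by A22C and the miR396 forms by T21G, the last base in both. tae-miR167c-5p had 15887 normalised counts in SWH and 13172 in TWH, while ata-miR167b-5p had 9081 and 16604, so that tae-miR167c-5p was 1.75 times as abundant as ata-miR167b-5p in SWH and 0.793 times in TWH. In the control pair that ratio was 1.85 in SCG and 0.558 in TCG. The order of the 2 forms was therefore reversed between the genotypes with both kinds of parents. ata-miR396e-5p had 3761 in SWH and 3151 in TWH, and ata-miR396c-5p had 14482 and 25649, a ratio of 0.260 in SWH, 0.123 in TWH, 0.254 in SCG and 0.0916 in TCG. A miR9863 pair shifted less, as ata-miR9863a-3p_1ss9TC was 0.490 times as abundant as ata-miR9863a-3p in SWH and 0.440 times in TWH.

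**Figure D4:**
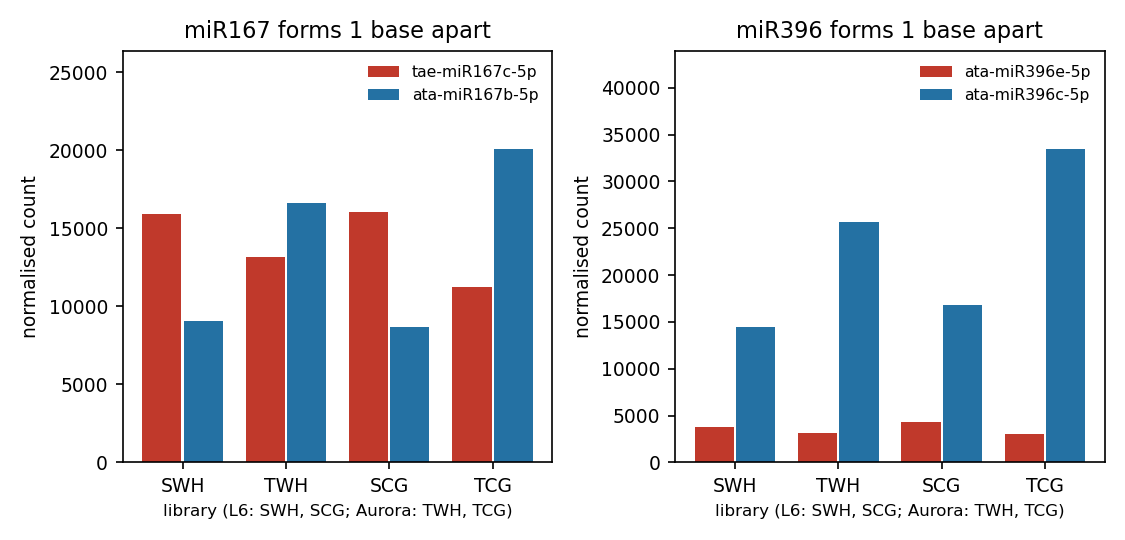
Normalised counts of 2 pairs of sequences that differ in the last base, in SWH, TWH, SCG and TCG, 1 bar per sequence and library. tae-miR167c-5p was the more abundant form in SWH and SCG and the less abundant in TWH and TCG, and ata-miR396c-5p was lower in the L6 libraries while ata-miR396e-5p was higher.

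Whether a difference between SWH and TWH was also present in seedlings of control parents was read from SCG and TCG, which share no library with SWH and TWH. By the same rule, 14.3% of sequences recorded in SCG or TCG were higher in SCG and 15.9% lower. Over the 1258 sequences whose normalised counts averaged 10 or more, the log2 ratios of the 2 pairs had a Pearson's r of 0.59 and a Spearman's rho of 0.42, as a description across sequences that share libraries and are not independent. Of 176 DEMs of SWH and TWH in this set, 144 (81.8%) had the same sign in SCG and TCG, against 813 (64.6%) of all 1258, and 36 of the 79 higher and 42 of the 97 lower ones were also called there. Among sequences that averaged 100 or more, 21 of 22 DEMs and 227 of all 322 (70.5%) had the same sign. The 27 abundant DEMs were chosen otherwise, by 100 counts in SWH or TWH. Of these 27, 26 had the same sign, and 20 were called in both pairs, 12 of 15 higher and 8 of 12 lower. The same shares over all 345 sequences with 100 counts in SWH or TWH were not computed. The widest gap between the pairs among the 27 DEMs was that of PC-3p-12688_136. Among sequences that averaged 100 or more counts it was that of PC-3p-4763_309, with a log2 of 1.90 for SWH over TWH and 0.26 for SCG over TCG. With 1 library per combination, whether the genotype difference changed with the parents' treatment was not tested.

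**Figure D5:**
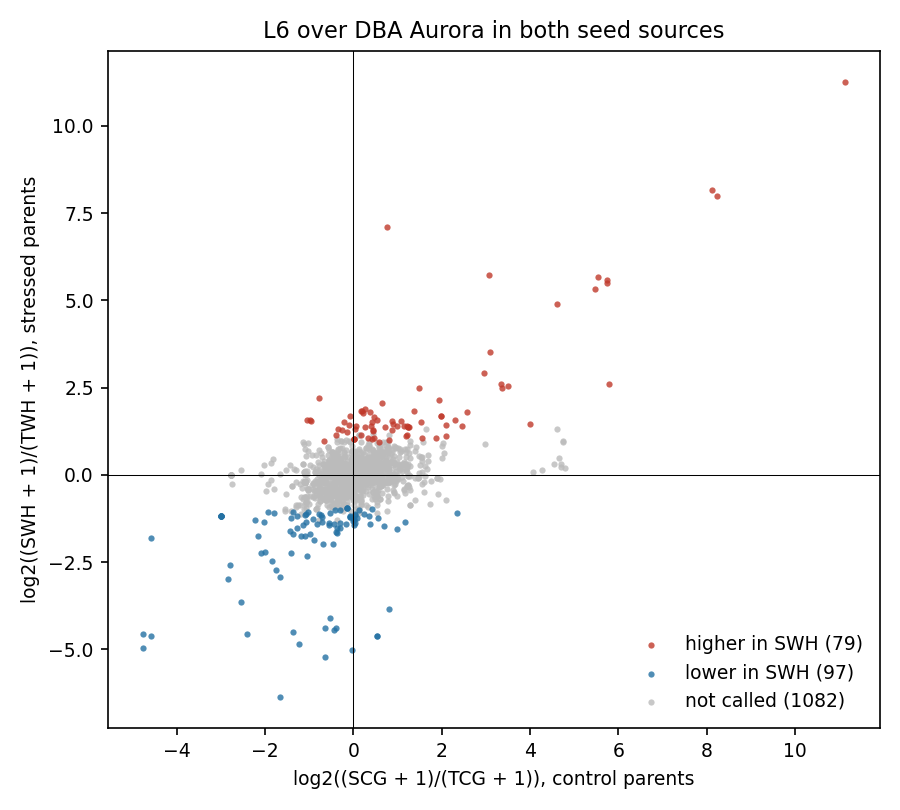
log2 ratio of L6 over DBA Aurora for 1258 sequences, with stressed parents (SWH over TWH, vertical) and control parents (SCG over TCG, horizontal), coloured by the call in SWH against TWH. Of the 176 coloured points, 144 lie in the lower left or upper right part, and the 3 sequences recorded in L6 alone with at least 100 counts lie at the upper right.

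A fit of all 4 libraries with the parent treatment as a term treats the 2 L6 libraries and the 2 DBA Aurora libraries as the replicates of a genotype and has 1 residual degree of freedom. With edgeR's quasi-likelihood test and Benjamini-Hochberg adjustment over 1258 sequences, 1 sequence (0.0795%) was higher in L6 and 0 were lower. This was ata-MIR396d-p3, with a log2 of 4.81 (SE 0.23, adjusted p = 0.0468, higher in 2 of 2 L6 libraries). Without adjustment, 85 were higher and 89 lower at p under 0.05. The next smallest adjusted p-values of edgeR were 0.0504 for PC-5p-1206_1154 and 0.0924 for tae-miR6201, ata-miR169b-3p_R-1, tae-miR9661-5p_1ss14GA, ata-miR169i-5p_1ss15TC and ata-miR9674a-3p_L-1R+1. The last of these had 86.3 in SWH, 6.63 in TWH, 87.4 in SCG and 9.32 in TCG. The lowest on the other side were osa-miR398a_L+1R-1, osa-miR167d-5p_R+4 and mdm-miR396c_R+2, each with an edgeR adjusted p of 0.0924, and mtr-miR398a-5p_1ss7AC and bdi-miR398b_L-2R+2 with 0.110. mdm-miR396c_R+2 had 5.99 in SWH, 53.9 in TWH, 10.8 in SCG and 82.8 in TCG. The number called depends on the tool, as DESeq2 on the same sequences gave 19 higher and 23 lower and limma gave 8 and 3. In fits without the treatment term, which gave 17 higher and 6 lower on all 4 libraries, leaving out TWH gave 59 higher and 43 lower with edgeR, leaving out SWH 17 and 5, SCG 19 and 20, and TCG 24 and 9.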

How the data were processed

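Small RNA libraries (TruSeq kit, HiSeq2500) were made from 4 pools of seedling shoots. The authors removed adapters, low-quality reads and reads matching RFam, Repbase or mRNA, kept 18 to 25 nt, and matched the rest to miRBase and to the Svevo.v1 genome with ACGT101-miR. The deposited raw columns hold estimated counts of reads per miRNA, some fractional, and the authors' normalised columns hold signal, which was the raw value times 1 factor per library (1.20 for SWH, 0.946 for TWH, 0.833 for SCG and 1.04 for TCG). Columns of the authors' own comparisons (fold changes and p-values) were not used. Chromosome names were assigned from the order of the accessions in the deposited coordinates, and the listed precursor may be 1 of several loci in a genome of neither genotype.

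The table held 2174 entries with 2149 names, beside 28 empty lines, and 1 value per distinct sequence was kept (2111). DEMs were called with scipy 1.17.1, with normalised counts rounded for Fisher's test. log2 ratios used a pseudocount of 1, and intervals are 95% counting intervals that cover counting error only. Raw reads, rounded to whole numbers, were fitted with edgeR 4.0.16 in R 4.3.3 at a mean normalised count of at least 10, with DESeq2 1.42.0 and limma 3.58.1 as alternatives. The DEM tests and the edgeR quasi-likelihood fit were also run on simulated data, while DESeq2, limma and edgeR's exact test were not. Named were the 12 highest and 12 lowest DEMs with at least 100 counts, the 5 most abundant sequences of SWH, the 2 most abundant DEMs and the most abundant sequence of each of 13 lists, the 5 smallest edgeR p each way, and opposite variants. Others named were chosen after their values were seen. The members and lists were chosen with earlier results of these data known.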

Additional observations from a re-analysis of the deposited data

Results flagged for a closer look

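At 20 or more normalised counts, 4 sequences were called in opposite directions in the 2 genotype pairs, and 0 at 100 or more. The difference between the pairs was not tested. PC-5p-14884_120 had 13.2 in SWH and 40.7 in TWH, a log2 of -1.56, and 50.0 in SCG and 24.8 in TCG. PC-5p-24390_80 had 18.0 in SWH and 39.8 in TWH, a log2 of -1.10, and 35.8 in SCG and 6.21 in TCG. osa-MIR437-p5_1ss16GC had 8.39 in SWH and 22.7 in TWH, a log2 of -1.34, against a log2 of 1.18 for SCG over TCG. zma-miR319a-3p_R+3, a longer form of a miR319, had 21.6 in SWH and 6.63 in TWH, a log2 of 1.57, and 9.99 in SCG and 21.7 in TCG.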

How the results depend on the processing

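The number of DEMs depended on the low counts. Of 239 higher and 352 lower in SWH, 117 and 145 were left at a normalised count of at least 10, 91 and 97 with 0 set to 5 reads, 53 and 57 with edgeR's exact test, and, in an alternative chosen after seeing the data, 73 and 82 among sequences recorded in both libraries. At p under 0.01 the lower ones were 176. Raw reads without the factors shifted every log2 by -0.34. The median log2 of the repeat-like list was -0.15 with a pseudocount of 10, -0.14 at a mean count of at least 10 and -0.16 for mature names. The medians of 6 lists changed sign: at a mean count of at least 10 the nutrition list had 0.16, phase change 0.01 and leaf and organ development -0.02, and for mature names the NLR list had -0.11, grass 0.08, Triticeae 0.02 and leaf and organ development -0.03. For mature names the copper list had -1.14 and the nutrition list -0.28. For the genotype effect in all 4 libraries, against 1 higher and 0 lower, DESeq2 gave 19 and 23, limma 8 and 3, no filter 65 and 73, and no parent treatment term 17 and 6, and edgeR with DESeq2 size factors gave 2 higher. Leaving out 1 library, without the treatment term, gave 17 to 59 higher and 5 to 43 lower, where the lone library of a genotype is assumed to vary like the others. At a mean count of at least 100, 95.5% of DEMs (21 of 22) and 70.5% of all 322 sequences had the same sign in SCG and TCG. Without the fold criterion, chosen after seeing the data, 6 opposite variant pairs were found, against 0. Of 108 log2 values of the 54 named sequences, 101 stayed within their interval, 7 moved, all with a pseudocount of 10, and 0 reversed. No paired analysis was possible because each group had 1 library and the labels give no replicate numbers. The fit of all 4 libraries is blocked by parent treatment instead. Values near 5 reads limit what can be said of absent sequences.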

Other observations

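Among sequences with at least 20 counts, 5 miRBase miRNAs carry 4 extra bases, ACCA, at the 3′ end, and all 5 were lower in SWH than in TWH and lower in SCG than in TCG. They were picked after their values were seen, so the direction is a description. Among all 88 sequences of at least 20 counts with a 3′ end longer than in miRBase, 48 had a log2 of SWH over TWH below 0 and 40 above 0. Of these 88, 21 were DEMs lower in SWH and 4 higher. The most abundant of the 5 with ACCA and the one with the lowest ratio are shown with the added bases in capitals.
ata-miR396a-5p_R+4: tccacaggctttcttgaactgACCA
osa-miR167d-5p_R+4: tgaagctgccagcatgatctgACCA
ata-miR396a-5p_R+4 had 663 normalised counts in SWH and 1012 in TWH, while its form without the tail, osa-miR396e-5p, was higher in SWH, so that the tailed form was 0.489% of the sum of both in SWH and 0.861% in TWH, and 0.440% in SCG and 0.694% in TCG. osa-miR167d-5p_R+4 had 13.2 in SWH and 83.3 in TWH, and 11.7 in SCG and 85.9 in TCG. Unlike sly-miR169a_R+4 and rco-miR171c_R+4, which have no listed position, it is listed at a hairpin on chromosome 5B. Whether its added bases are encoded there was not checked. The tailed share of aly-miR156a-5p_R+4 was 3.23% in SWH and 5.16% in TWH, with closer values of 2.86% in SCG and 3.24% in TCG. That of rco-miR171c_R+4 was 2.11% in SWH and 4.26% in TWH, and 1.49% in SCG and 2.70% in TCG.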
